A study of Mus musculus with 6 samples.

Results

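Transforming growth factor beta (TGF-beta) genes were examined in mouse muscle satellite cells: the 3 ligands Tgfb1, Tgfb2 and Tgfb3, the receptors Tgfbr1, Tgfbr2 and Tgfbr3, the intracellular SMAD genes Smad3 and Smad7, and the latent binding proteins Ltbp1 and Ltbp2. These 10 genes were taken by name, and all 10 were among the 23420 genes of the deposited table and among the 12591 tested. RNA was sequenced from 3 Dnmt1 KO and 3 control samples of satellite cells. The mice were C57BL/6 males 7 weeks old, bred from Pax7-CreERT2 and Dnmt1 flox animals, and were given tamoxifen or vehicle on 5 days in a row. Cre is thus driven from Pax7, a gene of satellite cells, and becomes active with tamoxifen. The labels leave unsaid which samples had tamoxifen and if the controls had Cre. They also do not state separate animals for the replicates, so p-values measure the spread among these libraries alone, and that spread may be technical.

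TGF-beta is secreted bound to its own propeptide, and this latent complex is tied to the extracellular matrix by latent binding proteins. Integrins, proteases and thrombospondin release the active ligand. The ligand then joins the type II receptor (Tgfbr2) to the type I receptor (Tgfbr1), a kinase that phosphorylates SMAD2 and SMAD3. Betaglycan (Tgfbr3) presents ligand to the type II receptor, and SMAD7 is an inhibitor that the pathway itself induces. In muscle, TGF-beta is known to restrain myoblast differentiation and fusion and to promote matrix deposition.

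The windows before the transcription start are shown for 3 genes with higher values in the Dnmt1 KO libraries (Tgfb1, Tgfbr2, Ltbp2) and for the gene whose values were most alike in the groups (Tgfbr1, the first of its 2 listed starts). Each is the 250 bases before the start in RefSeq (GRCm38.p6), 5′ to 3′ on the gene's strand, with CpG dinucleotides, the bases that DNMT1 methylates, in capitals.
Tgfb1 (chr7:25686752-25687001, plus strand): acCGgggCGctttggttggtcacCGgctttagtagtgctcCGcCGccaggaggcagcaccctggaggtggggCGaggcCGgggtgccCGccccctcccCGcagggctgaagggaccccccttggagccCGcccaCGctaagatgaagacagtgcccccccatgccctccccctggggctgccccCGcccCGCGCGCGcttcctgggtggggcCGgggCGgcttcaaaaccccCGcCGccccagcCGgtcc
Tgfbr2 (chr9:116175364-116175613, minus strand): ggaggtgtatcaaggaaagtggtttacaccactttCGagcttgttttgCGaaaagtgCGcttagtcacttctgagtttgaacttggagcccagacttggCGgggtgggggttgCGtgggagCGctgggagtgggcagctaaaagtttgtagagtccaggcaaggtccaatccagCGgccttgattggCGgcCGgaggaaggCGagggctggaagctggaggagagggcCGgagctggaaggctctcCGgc
Ltbp2 (chr12:84876492-84876741, minus strand): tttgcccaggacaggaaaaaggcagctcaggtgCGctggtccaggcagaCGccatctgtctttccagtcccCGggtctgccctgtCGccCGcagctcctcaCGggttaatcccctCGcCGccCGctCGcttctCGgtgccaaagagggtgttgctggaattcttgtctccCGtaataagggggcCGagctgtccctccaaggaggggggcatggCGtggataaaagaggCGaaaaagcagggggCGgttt
Tgfbr1 (chr4:47352972-47353221, plus strand): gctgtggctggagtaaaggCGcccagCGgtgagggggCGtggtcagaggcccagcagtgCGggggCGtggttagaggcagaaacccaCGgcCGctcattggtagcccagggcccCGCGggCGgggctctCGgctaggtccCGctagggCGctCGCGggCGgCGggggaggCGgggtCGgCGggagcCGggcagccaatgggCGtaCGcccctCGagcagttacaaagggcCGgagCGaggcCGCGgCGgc

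Of the 10 genes, 7 had a promoter entry that was used. The printed windows held 21 CpG in Tgfb1, 12 in Tgfbr2, 16 in Ltbp2 and 29 in Tgfbr1, against a median of 6 over 32851 mouse promoter windows of the same length. All 4 thus lay above the median. The second listed start of Tgfbr1 held 3 CpG. A link between CpG number and RNA values was not tested. Windows not printed held 22 CpG in Smad3, 12 and 7 at the starts of Ltbp1, and 8 in Tgfb2. The motif CAGAC, the core that SMAD3 and SMAD4 bind, was searched on both strands. It occurred 0 times in Tgfb1, 1 time in Tgfbr2, 2 times in Ltbp2 and 0 times in Tgfbr1, and 42.2% of all windows hold it. The GC box GGGCGG, which itself holds a CpG and was also searched on both strands, occurred 5 times in Tgfb1, 0 in Tgfbr2, 2 in Ltbp2 and 2 in Tgfbr1, and 32.7% of windows hold it. The AP-1 motif TGANTCA, which reads alike on both strands, occurred in none of the 4, and 6.75% of windows hold it. Methylation of these windows was not analysed here, and a match describes letters only.

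Values are read counts that the authors multiplied by 1 factor per library, called scaled counts here. Reads recovered from the values passed a check in 4 libraries, which were shallow. These had 954786 and 1102065 reads in Dnmt1 KO replicates 1 and 3 and 1437762 and 2021725 in control replicates 2 and 3. Dnmt1 itself had 74.6, 36.1 and 81.2 in Dnmt1 KO libraries, against 614, 539 and 655 in controls (log2 fold change -3.29, adjusted p = 0.00121). Of the genes that mark satellite cells and myoblasts, Pax7 had 58.2 to 66.5 in Dnmt1 KO libraries and 99.04 to 124 in controls (adjusted p = 0.0441), and Myod1 had 1096 to 1394 in Dnmt1 KO libraries and 1451 to 1704 in controls. Myf5 had 147 to 241 in Dnmt1 KO libraries and 242 to 467 in controls (adjusted p = 0.184). Of the 8 genes of that list these 3 lay wholly lower in Dnmt1 KO and 0 wholly higher. In the list 4 had a positive log2 fold change, among them Des (1535 to 2926 in Dnmt1 KO libraries and 906 to 1862 in controls, adjusted p = 0.194). The list's sum was 4563 to 5927 in Dnmt1 KO libraries and 4348 to 5601 in controls. Control replicate 2 was unlike replicates 1 and 3 of its group, with a summed scaled count of 14866 over 16 contractile genes, against 1381 and 958 in those controls. In the Dnmt1 KO libraries that sum was 6288, 6362 and 2154. Unless another test is named, p-values come from limma on log2(scaled count + 1), two-sided, adjusted by the Benjamini-Hochberg method over all 12591 genes, with a threshold of 0.05. Fold changes are on that scale and understate differences where values are low.

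None of the 10 genes passed the test, although 9 of the 10 had a positive log2 fold change and 4 had an unadjusted p under 0.05. Those 4 were Tgfbr3, Tgfb1, Ltbp2 and Tgfbr2, all with higher values in the Dnmt1 KO libraries. Over all tested genes, limma called 1.76% in either direction, 1.67% as higher and 0.0953% as lower, and at an unadjusted p under 0.05 there were 10.7% higher and 4.8% lower. The genes whose 3 Dnmt1 KO values all lay above the 3 control values also numbered 4, Tgfb1, Tgfbr2, Tgfbr3 and Ltbp1, and 0 of the 10 lay wholly below. Over all genes the groups did not overlap in 21.2%, with 13.4% higher and 7.81% lower. Log2 fold changes had a median of 0.56 in the 10 genes and 0.02 in all genes. On reads recovered in 4 libraries, which include control replicate 2, edgeR and DESeq2 called 0 of the 10. Of 13160 genes they called few at all, with 0.114% and 0.304% higher, so 0 of 10 adds little. In the authors' deposited table the q-values of the 4 genes were 0.0582 for Tgfbr3, 0.0639 for Tgfb1, 0.0724 for Tgfbr2 and 0.121 for Ltbp2, and 1 for each of the others.

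**Figure D1:**
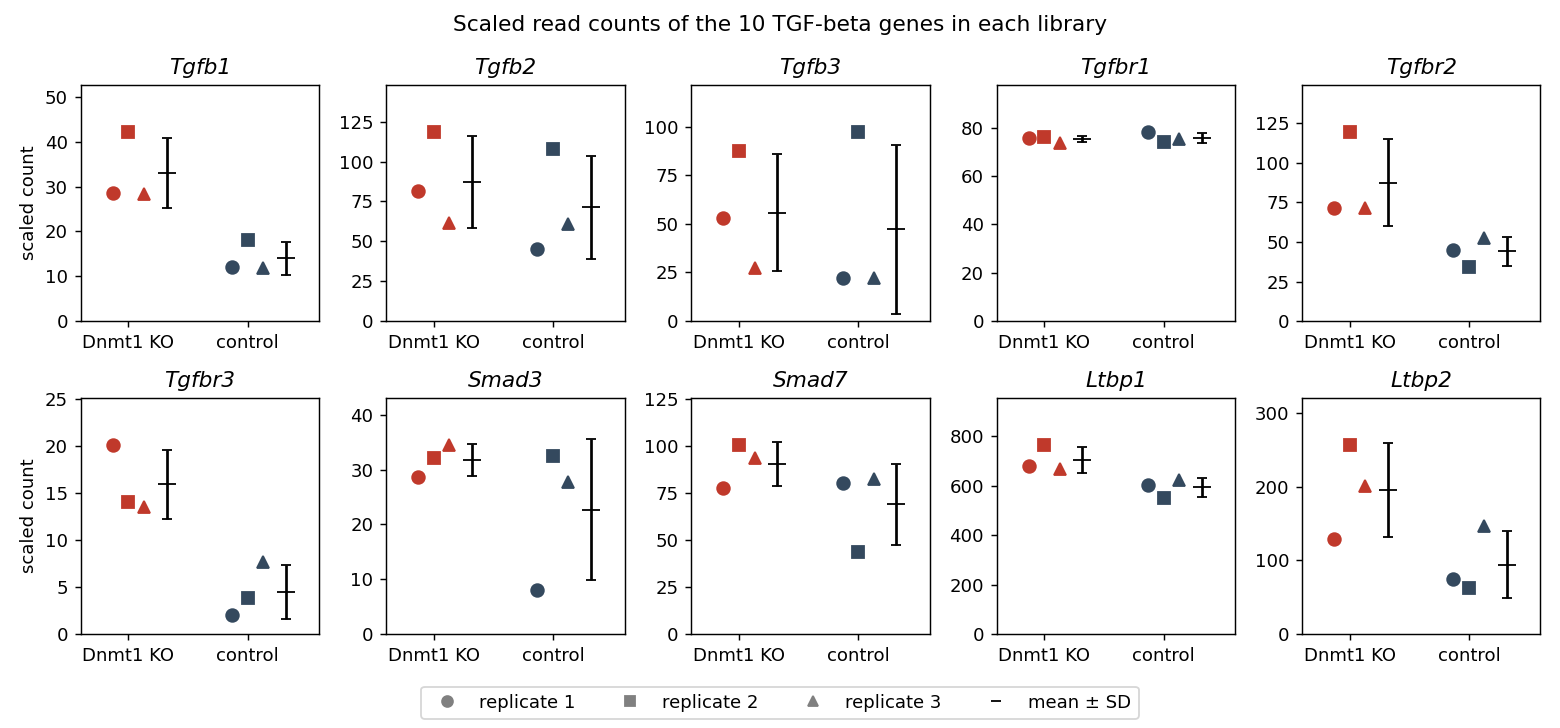
Scaled read counts (vertical axes, each from 0) of the 10 TGF-beta genes in Dnmt1 KO (left) and control (right) libraries, with a marker shape for each replicate number and the mean ± SD (n = 3) as a bar. Tgfb1, Tgfbr2, Tgfbr3 and Ltbp1 show groups that do not overlap, Tgfbr1 is nearly level at 73.8 to 78.2, and control replicate 2 is the highest control for Tgfb1, Tgfb2, Tgfb3 and Smad3.

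Tgfb1, the ligand most widely expressed in tissues, lies on chromosome 7 at 25687002 to 25704996 (mm10, plus strand, 7 exons as listed). It had 28.7, 42.1 and 28.3 scaled counts in Dnmt1 KO libraries 1, 2 and 3, against 12.04, 18.1 and 11.8 in control libraries 1, 2 and 3. The groups did not overlap, and replicate 2 was the highest library in each. The mean was 33.04 ± 7.88 in Dnmt1 KO and 13.96 ± 3.58 in controls (SD, n = 3 each), a ratio of means of 2.37. These values rest on 20 and 23 reads in Dnmt1 KO replicates 1 and 3 and on 19 and 17 in control replicates 2 and 3. The log2 fold change was 1.19 (SE 0.31, 95% interval 0.50 to 1.88, adjusted p = 0.0997). Without control replicate 2 it passed the threshold (log2 fold change 1.38, adjusted p = 0.0286), which was the only case among 17 alternatives. In that setting 5.30% of all genes were called higher, against 1.67% with all 6 libraries.

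Tgfb2 and Tgfb3 encode the other ligands of the same receptors. Tgfb2 (chromosome 1, 186623186 to 186705992, mm10, minus strand) had 81.7, 118 and 61.5 scaled counts in Dnmt1 KO libraries and 45.1, 108 and 60.8 in controls. Tgfb3 (chromosome 12, 86056743 to 86079041, minus strand) had 53.05, 87.3 and 27.1 in Dnmt1 KO libraries and 22.1, 97.1 and 22.1 in controls. In both genes the groups overlapped, and control replicate 2, the library with the high contractile sum, was far above the other controls. Tgfb2 had a log2 fold change of 0.33 (95% interval -0.40 to 1.07, adjusted p = 0.670). For Tgfb3 it was 0.45 (95% interval -0.82 to 1.73, adjusted p = 0.745). Without control replicate 2 it was 0.67 for Tgfb2 and 1.15 for Tgfb3, with adjusted p of 0.161 and 0.0988. The intervals hold both no difference and a doubling, so the data do not settle either gene. The part of the contractile genes in these values was not tested.

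Taking values per kilobase of exon, so that genes of different length can be compared, Tgfb1 made up 29.3%, 28.4% and 39.1% of the summed ligand level in Dnmt1 KO libraries. In controls it made up 26.3%, 14.4% and 22.4%. Tgfb1 was the lowest of the 3 ligands in 5 of 6 libraries and the highest in Dnmt1 KO replicate 3, and its share was higher in each Dnmt1 KO library than in any control. The summed level of the 3 ligands was 46.7, 71.0 and 34.5 scaled counts per kilobase in Dnmt1 KO libraries and 21.8, 60.1 and 25.03 in controls, so the groups overlapped in the sum.

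The receptors differed among themselves. Tgfbr1, the type I receptor (chromosome 4, 47353305 to 47414924, mm10, plus strand, 9 exons as listed), had 76.0, 76.3 and 73.8 scaled counts in Dnmt1 KO libraries, against 78.2, 74.3 and 75.4 in controls. These 6 values lay closer together than those of any other of the 10 genes. Tgfbr1 had a log2 fold change of -0.01 (SE 0.16, 95% interval -0.38 to 0.35, adjusted p = 0.982), and its sign turned under equal library totals (0.023). The interval leaves out a doubling or a halving.

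Tgfbr2, the type II receptor that binds TGF-beta first (chromosome 9, 116087695 to 116175363, mm10, minus strand, 8 exons as listed), had 71.7, 119 and 71.4 scaled counts in Dnmt1 KO libraries. Controls had 45.1, 34.3 and 52.5. Every Dnmt1 KO library was above every control, with Dnmt1 KO replicate 2 the highest and control replicate 2 the lowest. The means were 87.5 ± 27.6 in Dnmt1 KO libraries and 43.99 ± 9.19 in controls (SD, n = 3 each), a ratio of 1.99. The log2 fold change was 0.95 (SE 0.26, 95% interval 0.38 to 1.53, adjusted p = 0.111). It fell short of the threshold in all 17 alternatives, and fold changes lay between 0.55 and 1.09. Set against the type I receptor in the same library, the per-kilobase level of Tgfbr2 was 1.12, 1.85 and 1.14 times that of Tgfbr1 in Dnmt1 KO libraries and 0.683, 0.546 and 0.825 times in controls. Tgfbr2 thus lay above Tgfbr1 in each Dnmt1 KO library and below it in each control, as a description.

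Tgfbr3, the co-receptor betaglycan (chromosome 5, 107106570 to 107289595, mm10, minus strand, 17 exons as listed), had the lowest level and the highest fold change of the 10. It had 20.1, 14.0 and 13.5 scaled counts in Dnmt1 KO libraries and 2.01, 3.81 and 7.61 in controls. The groups did not overlap. The reads behind these values were 14 and 11 in Dnmt1 KO replicates 1 and 3 and 4 and 11 in control replicates 2 and 3, so Dnmt1 KO replicate 3 and control replicate 3 had the same number of reads at different depths. The log2 fold change was 1.74 (SE 0.46, 95% interval 0.71 to 2.77, adjusted p = 0.104). Of its 50-base words, 3.85% also occur in transcripts of other genes, the highest share among the 10.

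**Figure D2:**
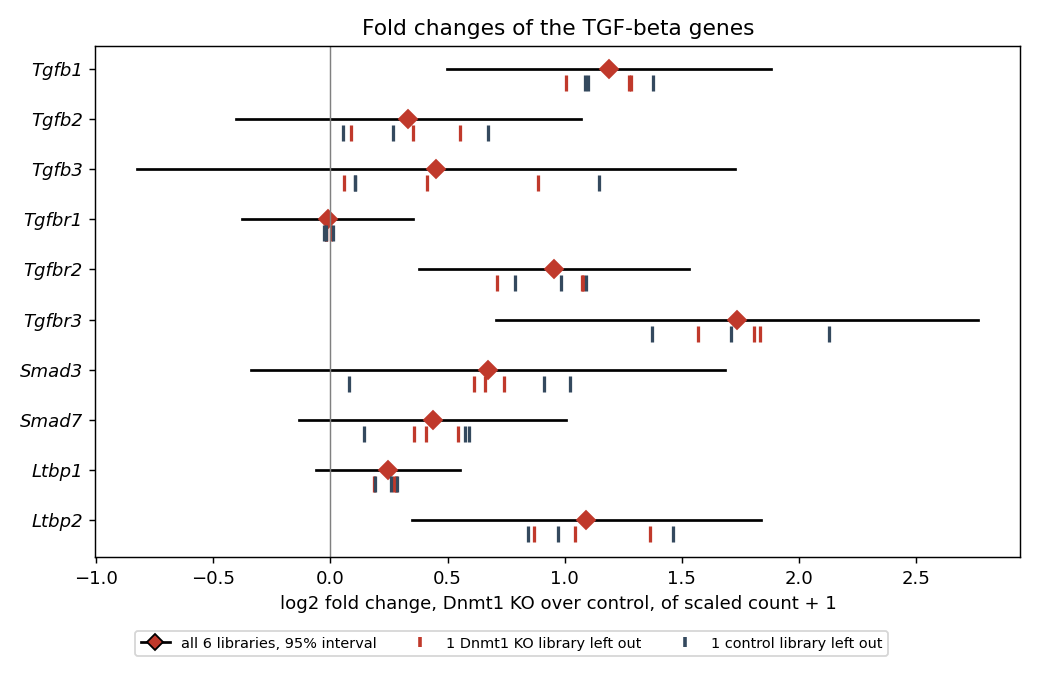
Log2 fold changes of the 10 TGF-beta genes, Dnmt1 KO over control, from limma (horizontal axis; diamonds, all 6 libraries; lines, 95% intervals without adjustment over genes), with ticks below for the values when 1 library is left out. The intervals of Tgfb1, Tgfbr2, Tgfbr3 and Ltbp2 lie above 0, none of the 10 had an adjusted p under 0.05, and the ticks of Tgfb3 and Smad3 are spread widest.

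Of the SMAD genes, Smad3, the transducer (chromosome 9, 63646767 to 63757994, mm10, minus strand), had 28.7, 32.1 and 34.5 scaled counts in Dnmt1 KO libraries and 8.03, 32.4 and 27.7 in controls. Control replicate 1 was low, and the other controls lay among or just below the Dnmt1 KO values. Smad3 had a log2 fold change of 0.67 (95% interval -0.34 to 1.68, adjusted p = 0.518), and without control replicate 1 it was 0.079. Smad7, the feedback inhibitor (chromosome 18, 75367365 to 75395934, plus strand), had 77.4, 100.3 and 93.5 in Dnmt1 KO libraries and 80.3, 43.8 and 82.3 in controls. Here control replicate 2 was the low library, and the groups overlapped. Smad7 had one of 0.44 (95% interval -0.13 to 1.01, adjusted p = 0.456), and without control replicate 2 it was 0.14.

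Ltbp1, a binding protein that ties latent TGF-beta to the matrix (chromosome 17, 75005529 to 75392967, mm10, plus strand, 34 exons as listed), was the most abundant of the 10 genes. It had 678, 765 and 668 scaled counts in Dnmt1 KO libraries, against 605, 550.4 and 624 in controls. The groups did not overlap, but the ratio of means was 1.19. Ltbp1 had a log2 fold change of 0.25 (SE 0.14, 95% interval -0.06 to 0.55, adjusted p = 0.438), so a doubling lies outside the interval.

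Ltbp2, a relative of Ltbp1 that does not itself bind latent TGF-beta and joins elastic fibre microfibrils (chromosome 12, 84783212 to 84876495, mm10, minus strand, 35 exons as listed), had 129, 257 and 202 scaled counts in Dnmt1 KO libraries. Controls had 74.2, 61.9 and 147. Dnmt1 KO replicate 1 lay below control replicate 3, so the groups overlapped by 1 library on each side. The means were 196 ± 64.1 in Dnmt1 KO and 94.5 ± 46.1 in controls (SD, n = 3 each), a ratio of 2.07. The log2 fold change was 1.09 (SE 0.33, 95% interval 0.35 to 1.84, adjusted p = 0.1502). The exons of D030025P21Rik on the other strand overlap those of Ltbp2, and that gene had 1.43 to 3.69 in Dnmt1 KO libraries and 0 to 6.91 in controls. The level of Ltbp1 per kilobase was 4.26, 2.42 and 2.69 times that of Ltbp2 in Dnmt1 KO libraries and 6.61, 7.22 and 3.44 times in controls.

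By level per kilobase of exon, Ltbp1 came first in both groups, at 86.5 ± 6.51 scaled counts per kilobase in Dnmt1 KO and 72.9 ± 4.71 in controls (SD, n = 3 each). In Dnmt1 KO libraries Ltbp2 followed at 29.7 ± 9.71, then Smad7 (20.4 ± 2.65), Tgfb2 (18.5 ± 6.101), Tgfbr2 (18.3 ± 5.77), Tgfb3 (16.5 ± 8.92), Tgfb1 (15.8 ± 3.76) and Tgfbr1 (13.3 ± 0.234). From Ltbp2 to Tgfbr1, neighbours in this order differed by less than the larger of their SDs. Smad3 (6.24 ± 0.571) and Tgfbr3 (2.62 ± 0.601) came last and lay apart from each other and from the rest. In controls the order after Ltbp1 was Smad7 (15.5 ± 4.88), Tgfb2 (15.1 ± 6.88), Ltbp2 (14.3 ± 6.99), Tgfb3 (13.9 ± 12.8), Tgfbr1 (13.4 ± 0.362), Tgfbr2 (9.19 ± 1.92), Tgfb1 (6.67 ± 1.71), Smad3 (4.46 ± 2.54) and Tgfbr3 (0.739 ± 0.472). Those from Smad7 to Tgfbr1 differed by less than their spread, as did Tgfb1 and Smad3.

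For the members with the smallest p-values, Tgfb1 and Tgfbr3, the most similar profiles were sought among 7546 and 7547 tested genes with a mean of at least 20, by the root mean square difference of centred log2 values over the 6 libraries. Nearest to Tgfb1 were Mfsd6 (0.099), Serinc3 (0.105) and Alg2 (0.113). Serinc3, for example, had 634, 815 and 578 in Dnmt1 KO libraries and 276, 340.0 and 277 in controls, with replicate 2 highest in each group as in Tgfb1. Nearest to Tgfbr3 were Galnt18 (0.251), Ikbip (0.253) and Micall2 (0.300), a looser match.

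Other genes of the pathway were taken from 7 lists by role. Without the 10 genes they had 100 members in the table, of which 86 were tested. Of these, 6 rose (6.98%, against 1.67% of all genes) and 0 fell. At an unadjusted p under 0.05, 20 were higher and 5 lower, against 10.7% and 4.8% of all genes. The lists were written with earlier results of these data known, so these shares do not test the pathway. By edgeR on 4 libraries 0 of these pathway genes rose, and by DESeq2 2, against 0.114% and 0.304% of all genes. The risers were 2 proteases, 2 receptors and 2 collagen genes, and 0 of the SMADs, SMAD partners and inhibitors were among them. Over the 86 tested pathway genes the median log2 fold change was 0.15, against 0.02 over all genes.

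Among genes that store or activate latent TGF-beta, 2 of 20 tested rose and 0 fell (median 0.36). Mmp2, a gelatinase that can release active ligand, had 63.1, 49.2 and 33.2 scaled counts in Dnmt1 KO libraries and 10.03, 2.86 and 6.91 in controls (log2 fold change 2.78, SE 0.43, adjusted p = 0.0142). Mmp14, the membrane protease that activates pro-MMP2, had 100.4, 219 and 93.5 in Dnmt1 KO libraries and 30.1, 43.8 and 24.9 in controls (log2 fold change 1.96, SE 0.34, adjusted p = 0.0218). In both genes every Dnmt1 KO library lay above every control. Mmp2 lost its call without Dnmt1 KO replicate 1 or 2 (adjusted p of 0.101 and 0.0910), and Mmp14 without either of these or without control replicate 1 or 3 (0.0757 to 0.104). The most abundant genes of the list were Thbs1, an activator of latent TGF-beta, and Itgb1, an integrin subunit. Thbs1 had 3229 to 3970.1 in Dnmt1 KO libraries and 3173 to 3438 in controls (adjusted p = 0.678), and Itgb1 had 1411 to 2066 in Dnmt1 KO libraries and 1391 to 1416 in controls (adjusted p = 0.529).

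Of proteins that bind the secreted ligand, 2 of 7 were high enough to test and 0 passed. Bgn, the proteoglycan biglycan, had 185, 464 and 135 scaled counts in Dnmt1 KO libraries and 61.2, 88.6 and 43.6 in controls, with no overlap (log2 fold change 1.86, adjusted p = 0.0561). It passed in 4 of 17 alternatives, among them without control replicate 2 (adjusted p = 0.00423) and with no filter (0.0371). The first of these settings called 5.30% of all genes higher, and the second 1.54%. Vasn had 17.2 to 49.2 in Dnmt1 KO libraries and 14.04 to 26.7 in controls (adjusted p = 0.490). Decorin (Dcn), which also binds TGF-beta, was at 0 to 1.43 in Dnmt1 KO libraries and 0 to 2.01 in controls and was not tested.

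Among co-receptors and receptor partners, 2 of 6 tested rose and 0 fell (median 1.02). Acvrl1, the type I receptor ALK1 known from endothelial cells, had 14.3, 21.1 and 22.2 scaled counts in Dnmt1 KO libraries and 4.01, 1.90 and 2.07 in controls (log2 fold change 2.48, SE 0.41, adjusted p = 0.0179). A single read was worth 0.952 in control replicate 2 and 0.691 in control replicate 3, so these control values rest on few reads. Nrp1, the co-receptor neuropilin-1 that can bind TGF-beta, had 93.2, 127 and 102 in Dnmt1 KO libraries and 61.2, 42.9 and 49.8 in controls (log2 fold change 1.06, SE 0.21, adjusted p = 0.0386). Acvrl1 lost its call without any of the Dnmt1 KO libraries or without control replicate 3 (adjusted p of 0.0663 to 0.121). Nrp1 lost it without any library but control replicate 2 (0.0739 to 0.187) and with a pseudocount of 0.1 (0.0525). Eng, or endoglin, picked with its values known, had 25.8, 47.2 and 28.3 in Dnmt1 KO libraries and 12.04, 11.4 and 13.8 in controls (adjusted p = 0.0766), and it passed without control replicate 2 (adjusted p = 0.0496). Cd109 had 47.3 to 80.3 in Dnmt1 KO libraries and 20.1 to 43.8 in controls (adjusted p = 0.176), and it too passed without that library (adjusted p = 0.0193). Leaving that library out called 5.30% of all genes higher. Nrp2 had 78.9 to 102 in Dnmt1 KO libraries and 77.2 to 127 in controls (adjusted p = 0.826). The sum over 8 endothelial markers was 11.1 to 18.6 in Dnmt1 KO libraries and 6.67 to 15.05 in controls. In Dnmt1 KO libraries that is about the size of Acvrl1 itself. Of these markers, Tek lay wholly higher (1.43 to 3.69 in Dnmt1 KO libraries, 0 to 0.691 in controls). Kdr lay wholly lower (1.003 to 1.43 in Dnmt1 KO libraries, 1.90 to 5.02 in controls). The part of endothelial cells in the Acvrl1 and Eng values was not tested.

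**Figure D3:**
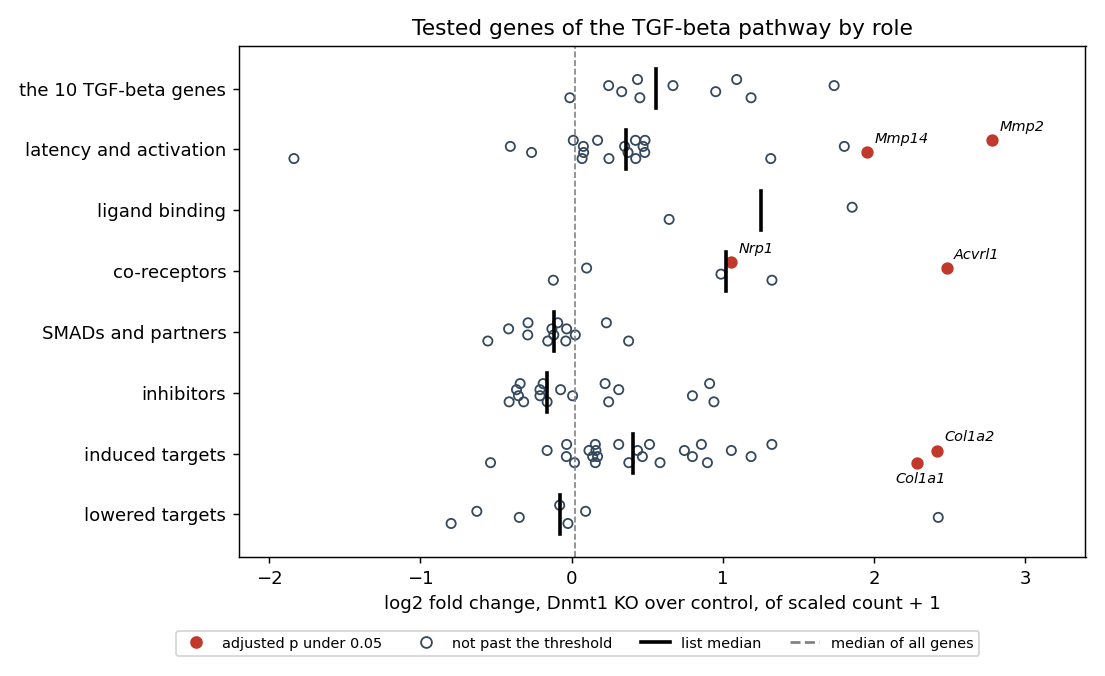
Log2 fold changes, Dnmt1 KO over control, of the tested TGF-beta pathway genes by role (horizontal axis; filled points, adjusted p under 0.05; black bars, list medians; dashed line, median of all genes). The 6 genes past the threshold lie at 1.06 or above, and the medians of SMADs and partners (-0.12) and inhibitors (-0.16) lie below 0 while that of the 10 TGF-beta genes is 0.56. Genes in more than 1 list are drawn in each.

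Of the SMAD transducers and their transcription partners, 0 of 13 tested passed (median -0.12), with 0 higher and 2 lower at an unadjusted p under 0.05. Smad2 and Smad4, named after their values were seen, carry the signal with Smad3. Smad2 had 72.6 to 97.5 scaled counts in Dnmt1 KO libraries and 83.3 to 97.5 in controls, and Smad4 had 125 to 152 in Dnmt1 KO libraries and 155 to 192 in controls (adjusted p of 0.794 and 0.421). Of the most abundant genes of the list, Runx1 had 231 to 245 in Dnmt1 KO libraries and 226 to 305 in controls (adjusted p = 0.821). Runx2 had 168 to 245 in Dnmt1 KO libraries and 275 to 289 in controls (adjusted p = 0.2696). Among 17 intracellular inhibitors 0 passed (median -0.16, 2 higher at an unadjusted p under 0.05). Fkbp1a, which holds the type I receptor inactive, had 483 to 548 in Dnmt1 KO libraries and 554 to 620.2 in controls (adjusted p = 0.5005), and Strap had 417 to 480.0 in Dnmt1 KO libraries and 461 to 555 in controls (adjusted p = 0.519). Pmepa1, an inhibitor that TGF-beta induces and that was picked with its values known, had 264, 503 and 367 in Dnmt1 KO libraries and 216, 177 and 240 in controls without overlap (log2 fold change 0.80, adjusted p = 0.127).

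Of 26 tested genes that TGF-beta induces in mesenchymal cells, Tgfb1 and Smad7 included, 2 rose and 0 fell, and 22 had a positive log2 fold change (median 0.41). Over all genes 52.4% were positive. At an unadjusted p under 0.05, 8 were higher and 1 lower, against 10.7% and 4.8% of all genes. The lower gene was Snai2, with 32.1 to 40.6 in Dnmt1 KO libraries and 41.9 to 65.7 in controls (log2 fold change -0.54). Tagln (0.02), Postn (-0.03) and Snai1 (-0.03) were nearly level. Col1a2 had 288, 404 and 210.4 scaled counts in Dnmt1 KO libraries and 52.2, 73.3 and 40.1 in controls (log2 fold change 2.42, adjusted p = 0.00380). Col1a1, the other chain of type I collagen, had 33.0, 46.2 and 17.2 in Dnmt1 KO libraries and 9.03, 5.71 and 2.77 in controls (log2 fold change 2.28, adjusted p = 0.0476). Col1a2 lost its call without Dnmt1 KO replicate 1 (adjusted p = 0.0502), and Col1a1 without any library but control replicate 2 (0.0610 to 0.232), with a pseudocount of 0.1 (0.0724) and with a mean of at least 10 (0.0574). Ccn2, listed under its older symbol Ctgf and picked with its values known, had 238, 447 and 407 in Dnmt1 KO libraries and 217, 99.04 and 309 in controls (log2 fold change 0.90, adjusted p = 0.289).

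Of 7 genes that TGF-beta lowers in some cell types, 0 passed, and the median was -0.08. Myod1 had 1394, 1096 and 1209 scaled counts in Dnmt1 KO libraries, against 1534, 1704 and 1451 in controls (log2 fold change -0.35, adjusted p = 0.331). Myog, which drives differentiation, ranged from 92.3 to 905 in Dnmt1 KO libraries and had 24.1, 1821 and 5.53 in controls (log2 fold change 2.43, adjusted p = 0.525). It followed the contractile genes, being highest in control replicate 2. Without that library the log2 fold change of Myog was 4.81 (adjusted p = 0.00123 by limma). The library left out held the highest Myog value, so this result depends on that choice. Myog passed in 2 of 17 alternatives.

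Markers of other cell types that could bring TGF-beta transcripts of their own were summed in each library. Fewer cells of a type and less RNA per cell cannot be told apart in such samples. The sum over 12 macrophage markers was 84.6, 189 and 77.5 in Dnmt1 KO libraries and 38.1, 21.9 and 24.9 in controls. It consisted mostly of Laptm5 (67.7 to 180 in Dnmt1 KO libraries and 19.999 to 35.1 in controls, adjusted p = 0.0391), while Ptprc, Adgre1 (listed as Emr1), C1qa, C1qb and Tyrobp were at 0 in all 6 libraries. The other 2 markers high enough to test also had groups that did not overlap, with Cd68 at 3.69 to 10.04 in Dnmt1 KO libraries and 1.003 to 2.07 in controls, and Cd14 at 1.003 to 6.15 in Dnmt1 KO libraries and 0 in all 3 controls (adjusted p of 0.219 and 0.213). The sum over 10 markers of fibro-adipogenic progenitors, the connective tissue cells of muscle, was 902, 1090 and 687 in Dnmt1 KO libraries and 370.2, 690.4 and 413 in controls. Gsn (267 to 583 in Dnmt1 KO libraries and 50.2 to 192 in controls, adjusted p = 0.0431) and Col3a1 made up most of it. Pdgfra, the defining marker, had 1.23 to 8.60 in Dnmt1 KO libraries and 0.952 to 9.03 in controls, and Lum and Dpt were at 0 in all 6. Of the other lists, 6 pericyte markers summed to 178 to 250 in Dnmt1 KO libraries and 38.7 to 240.0 in controls, 4 tenocyte markers to 44.1 to 93.2 in Dnmt1 KO libraries and 78.8 to 99.04 in controls, and 4 platelet markers to at most 1.003 in Dnmt1 KO libraries and 1.90 in controls. Dnmt1 KO replicate 2 was the highest library for the macrophage and fibro-adipogenic sums, as it was for Tgfb1, Tgfb2, Tgfbr2, Smad7, Ltbp1 and Ltbp2. Without it the log2 fold change was 1.005 for Tgfb1, 0.088 for Tgfb2, 0.71 for Tgfbr2, 0.36 for Smad7, 0.18 for Ltbp1 and 0.87 for Ltbp2. The part of these markers in the TGF-beta values was not tested.

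**Figure D4:**
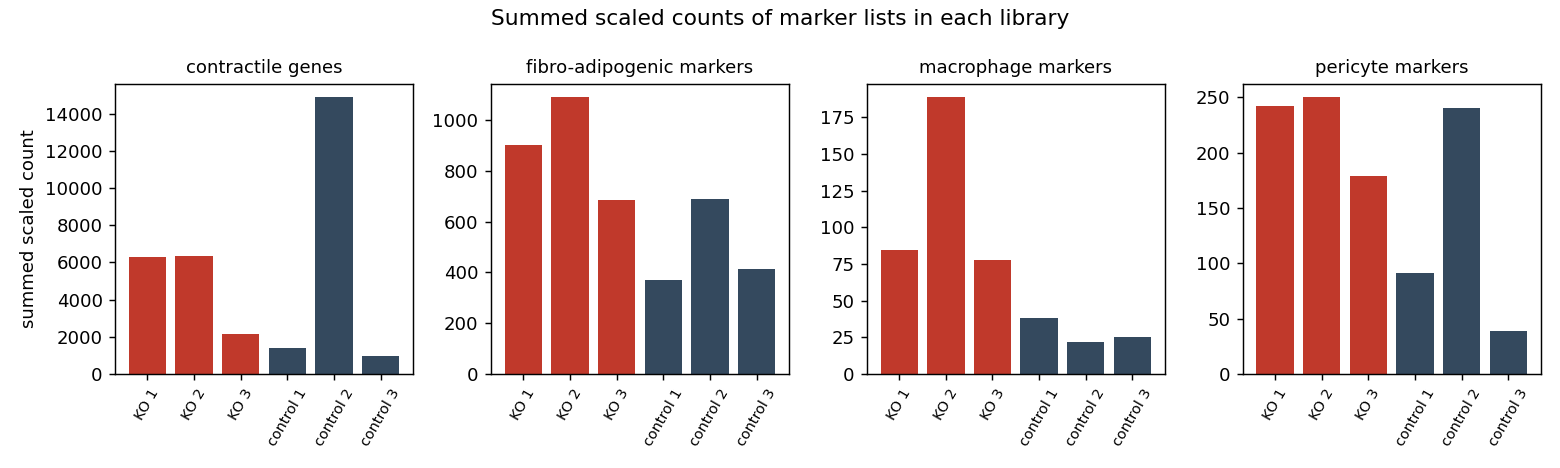
Summed scaled counts (vertical axes, from 0) of 4 marker lists in the 3 Dnmt1 KO (left bars) and 3 control (right bars) libraries. Control replicate 2 reaches 14866 for contractile genes, above every other library, and Dnmt1 KO replicate 2 is highest for the fibro-adipogenic (1090) and macrophage (189) lists.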

How the data were processed

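RNA of satellite cells was sequenced in 3 Dnmt1 KO and 3 control samples. TopHat, featureCounts and mm10 are named in the submitters' processing notes, without versions. The annotation, strand setting and scaling method are not stated there. The library kit keeps strand, per the labels. The authors deposited a signal per gene and library, which is the read count times 1 factor per library: 100% of values above 0 were whole multiples of the smallest within 0.001. The p-value and q-value columns in the deposited table are the authors' own test.

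The filter kept genes at 1 or more in 3 or more libraries, and these were tested with limma 3.58.1 (R 4.3.3, intensity trend) on log2(value + 1), all 6 libraries, no covariate. Alternatives were 3 scalings, a pseudocount of 0.1, 2 filters, a block for replicate numbers, leaving out libraries 1 at a time, and edgeR 4.0.16 and DESeq2 1.42.0 on the 4 libraries whose reads were recovered (Dnmt1 KO replicates 1 and 3, control replicates 2 and 3); reads of the other 2 were not accepted by a check of the values and are not given. Leaving out replicate 2 of both groups, and limma on those 4 libraries, were added after seeing the data. The scripts were tested on simulated data. The TGF-beta genes and the lists were chosen with earlier results of these data known. Genes named outside the 10 were those past the threshold in each list and its 2 most abundant others, of which 1 is not reported here. Dcn, Eng, Pmepa1, Ccn2, Snai1, Snai2, Tagln, Postn, Smad2, Smad4, Tcf3, Cdc25a, Vcan, Bhlhe40 and the marker genes fall outside that rule and were picked with their values known. Windows before the start came from RefSeq tables, and words of 50 bases from GENCODE M21 transcripts.

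With 954786 to 2021725 reads in those 4 libraries, low genes rest on few reads, and counting alone limits their precision. This holds for the control values of the called genes Mmp2, Acvrl1 and Col1a1.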

Additional observations from a re-analysis of the deposited data

How the results depend on the processing

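The 10 TGF-beta genes gave 0 calls in either direction in 16 of 17 alternatives, and 1 higher call (Tgfb1) without control replicate 2. The counts over all genes, 210 higher and 12 lower, were 121 and 6 with a pseudocount of 0.1, 15 and 1 by edgeR, 40 and 1 by DESeq2, 2 and 1 by limma on the same 4 libraries, and 445 and 84 without replicate 2 of both groups. With 1 library left out they ranged from 12 to 659 higher and from 1 to 114 lower, both highest without control replicate 2. The 6 higher and 0 lower pathway genes became 0 higher by edgeR, 2 by DESeq2, 0 by limma on those 4 libraries, and 11 higher and 2 lower without replicate 2 of both groups. With 1 library left out they ranged from 0 to 16 higher and from 0 to 2 lower.

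Whether the replicate numbers pair the samples was not settled. Deviations of same-numbered libraries correlated at -0.058, 0.22 and 0.31. Dnmt1 KO replicates 2 and 3 correlated best with the control of the same number, and Dnmt1 KO replicate 1 with control replicate 2 (0.14). With 3 libraries per group, such correlations cannot decide it. With the replicate block 359 genes were higher and 76 lower, as were 11 and 2 pathway genes and 0 of the 10. Bgn, Cd109, Vcan, Cdc25a and Tcf3 passed under the block (adjusted p of 0.00197, 0.0481, 0.0159, 0.0194 and 0.0491).

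The fold change of Tgfb2 reversed to -0.26 by edgeR, -0.26 by DESeq2 and -0.19 by limma on their 4 libraries, and that of Tgfb3 to -0.59, -0.61 and -0.29. These settings hold only control replicates 2 and 3. Tgfbr1 reversed to 0.023 with equal totals, 0.0033 without Dnmt1 KO replicate 3, 0.010 without control replicate 1 and 0.0016 on the 4 libraries. With libraries left out, Tgfbr1 ranged from -0.035 to 0.010, Nrp2 from -0.31 to 0.047 (without control replicate 3) and Runx1 from -0.17 to 0.041 (without control replicate 2; 0.063 without replicate 2 of both groups). Myog reversed to -0.91 by edgeR and -0.93 by DESeq2. Beyond construction, the cause of these turns was not tested. In the 4 libraries with accepted reads, depth limits Tgfbr3 most, with 4 reads in control replicate 2.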

Other observations

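Some pathway genes that missed the threshold had groups that did not overlap, and a few of them are named here after their values were seen. Tcf3, an E protein that partners MYOD, had 135, 141 and 137 scaled counts in Dnmt1 KO libraries and 194, 196 and 218 in controls (log2 fold change -0.55, adjusted p = 0.0935 by limma). Cdc25a, a phosphatase that drives entry into S phase, had 73.1, 70.2 and 99.7 in Dnmt1 KO libraries and 137, 116 and 171 in controls (log2 fold change -0.80, adjusted p = 0.0966). In the other direction, Vcan, the matrix proteoglycan versican, had 411, 583 and 487 in Dnmt1 KO libraries and 294, 332 and 252 in controls (log2 fold change 0.75, adjusted p = 0.0679). Bhlhe40, a transcriptional repressor, had 37.3, 76.3 and 43.1 in Dnmt1 KO libraries and 21.1, 15.2 and 22.1 in controls (log2 fold change 1.33, adjusted p = 0.0751). Without control replicate 2, Vcan, Bhlhe40 and Cdc25a passed, with adjusted p of 0.0122, 0.0479 and 0.0185, and without replicate 2 of both groups Vcan and Cdc25a passed (0.0169 and 0.0274) while Bhlhe40 did not (0.146). The first setting called 659 of 12445 genes higher and 114 lower. The second called 445 of 11844 higher and 84 lower. Of the 86 tested pathway genes outside the 10, calls included, 19 lay wholly higher and 8 wholly lower in Dnmt1 KO. Over all tested genes, the groups did not overlap in 21.2%, with 13.4% higher and 7.81% lower.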
